A study of Rattus norvegicus with 9 samples.

Results

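This report describes 10 genes of diacylglycerol signalling in rat bladder: 7 protein kinase C (PKC) genes, Prkca, Prkcb, Prkcd, Prkce, Prkch, Prkci and Prkcz, and 3 Ras exchange factor genes, Rasgrp1, Rasgrp2 and Rasgrp3. They were chosen by name, as every probe set that the array annotation assigns to 1 of these symbols and to no other gene. This gave 17 of the 31042 probe sets tested, for 10 of the 14217 genes with such a probe set. Where a gene had several probe sets, the one with the highest mean over the 9 arrays is given first, and it stands for the gene in every count of genes. Levels of different probe sets were not compared, since each binds its target with its own efficiency.

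Total RNA of 9 female SD rat bladder samples was measured on Affymetrix 3' expression arrays. There were 3 bladder tumors, typed as transitional cell carcinoma (BTCC) by histology, 3 adjacent normal tissues of the same tumor-bearing rats, and 3 normal bladders of separate rats (n = 3 rats in each group). The tumors followed weekly bladder instillation of the alkylating carcinogen MNU at 20 mg/ml for 10 weeks in rats 10 weeks old. The sample labels carry this MNU text for all 9 samples, whereas the series design describes the last 3 bladders as coming from normal rats.

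PKC enzymes are serine/threonine kinases, most of which pass on the second messenger diacylglycerol, which phospholipase C makes at the membrane. Classical isoforms (alpha, beta) need calcium and diacylglycerol, calcium-independent isoforms (delta, epsilon, eta) need diacylglycerol alone, and atypical isoforms (iota, zeta) respond to neither and work with cell polarity proteins. RasGRP proteins carry a similar lipid-binding domain and load Ras or Rap GTPases with GTP. Through some of them, diacylglycerol can also reach the Ras and MAP kinase route. In bladder, PKC is best known in the contraction of detrusor muscle and as the target of tumor-promoting phorbol esters in epithelium.

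Promoter windows of 8 of the 10 members were found in the RefSeq promoter table (GRCr8), and the 250 bases before the listed start were searched on both strands. The windows of Prkca, Prkcd, Prkce, Rasgrp2 and Rasgrp3 lay wholly inside the annotated gene, and that of Prkcz in part. Prkcd spans chr16:5775681-5806122 and Rasgrp2 chr1:213135034-213152246, so neither window lies upstream of the whole gene. GGGCGG, the core of the Sp1 site, was present in 7 of these 8 windows, against 30.5% of all 33469 windows. TGANTCA, the AP-1 site through which phorbol esters and PKC are known to act on transcription, was in 0 of the 8 windows, against 6.34% of all windows. The CArG box, the serum response factor site of muscle genes, was in 0 of 8, against 1.5% of all windows. The Prkcd and Prkcz windows each held 5 GGGCGG matches, a number that 1.72% of all windows reached, and the Rasgrp2 window held 1. Only the matches of Prkcd and Rasgrp2 are shown, because Prkcd and Rasgrp2 are the members with a window whose RNA differed from normal bladder in the results that follow. Capitals mark GGGCGG or its reverse complement, and all stretches are written 5' to 3'. Those of Prkcd lie, in the order shown, at chr16:5805915-5805944, chr16:5805884-5805912 and chr16:5805840-5805863 on the minus strand, and that of Rasgrp2 at chr1:213136598-213136627 on the plus strand.
Prkcd, matches 101 and 85 bases before the start: tcgtGGGCGGagcttcgaagGGGCGGgcgc
Prkcd, matches 70 and 53 bases before the start: gtgGGGCGGatcctgagtggGGGCGGgac
Prkcd, match 12 bases before the start: ggtcgcgcagtcCCGCCCcctcgc
Rasgrp2, match 124 bases before the start: ttgaagggggagGGGCGGcagactgggtgt
A match is a stretch of letters and not evidence of binding, and no binding was measured in this series.

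In tumors, Prkcb and Rasgrp2 fell to 9.2% and 11.3% of their signal in normal bladder, Prkcd rose 2.52-fold, and the other 7 members did not pass the test. The adjacent normal tissue differed from normal bladder in the same 3 first probe sets. The comparison of tumors with normal bladder asks what the carcinoma had gained or lost, and that of adjacent tissue asks how far the tissue beside it still resembled normal bladder. Both use the same 3 normal bladder arrays, so their values stand side by side and are not independent of each other. Values are the deposited log2 MAS5 signals, in which 1 unit is a 2-fold difference. A probe set was called where limma gave a Benjamini-Hochberg adjusted p under 0.05 over all 31042 probe sets. By first probe set, 3 of 10 members were called in tumors, 1 higher and 2 lower, where 23.5% of all genes were called (13.6% higher and 9.95% lower). In adjacent tissue 3 of 10 were called, 1 higher and 2 lower, where 24.8% of all genes were called (13.3% higher and 11.5% lower). The shares of members and of all genes were close. The median log2 fold change over the 10 members was -0.00 in tumors and 0.06 in adjacent tissue, and over all genes 0.05 and 0.01.

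**Figure D1:**
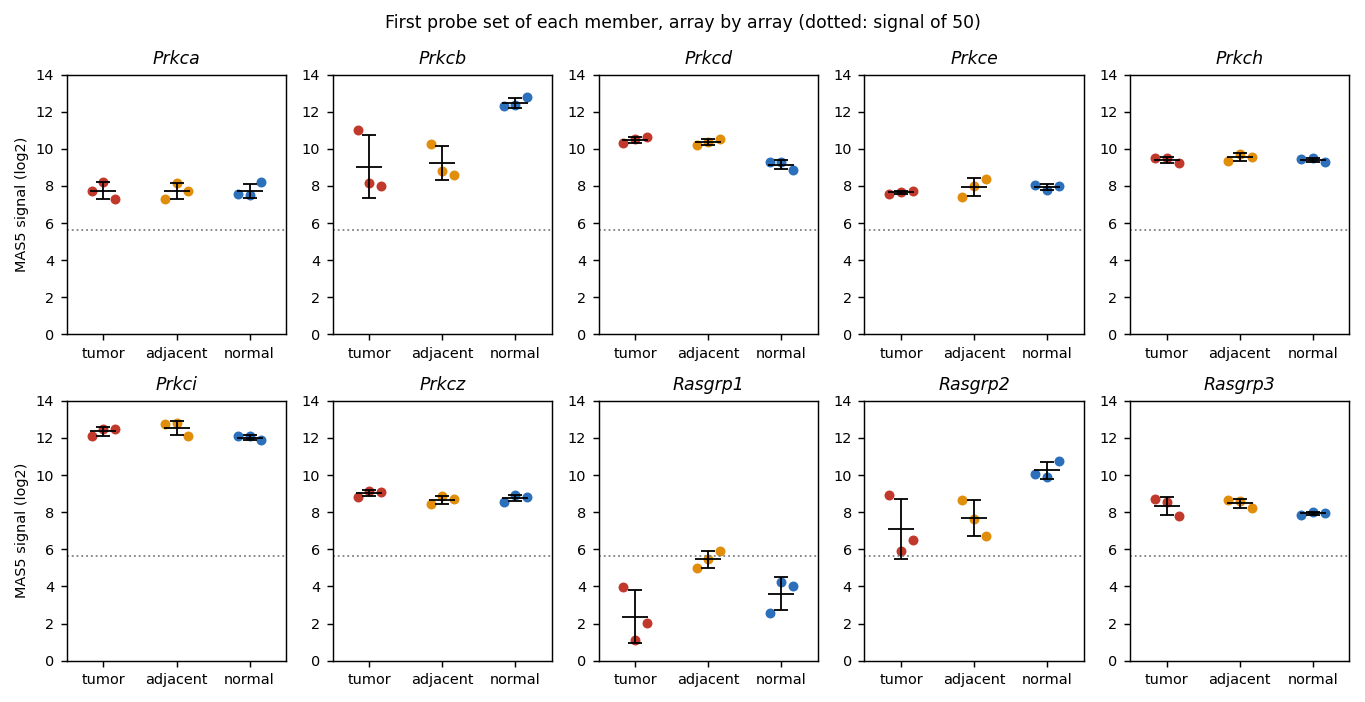
Log2 MAS5 signal of the first probe set of each of the 10 members (vertical axis, one scale for all panels) on the 3 tumor, 3 adjacent normal and 3 normal bladder arrays, left to right. Points are arrays, black bars the group mean ± SD (n = 3), and the dotted line marks a signal of 50; Prkcb and Rasgrp2 lie lower, and Prkcd higher, in tumors and adjacent tissue than on any normal bladder array.

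Among the classical isoforms, Prkcb codes for the beta isoform, best known from B cell receptor signalling. Its first probe set (1370585_a_at) measured 11.02, 8.14 and 7.97 in the 3 tumors, 10.28, 8.79 and 8.62 in the 3 adjacent tissues, and 12.31, 12.36 and 12.79 in the 3 normal bladders. All 6 samples of tumor-bearing rats lay below all 3 normal bladders. Tumor 1 and adjacent tissue 1, taken by their shared number as tissues of 1 rat, were the highest of their groups. The group means were 9.04 ± 1.71, 9.23 ± 0.92 and 12.49 ± 0.27 for tumors, adjacent tissue and normal bladder (SD, n = 3 each). The log2 fold change was -3.44 ± 0.75 in tumors (SE, limma adjusted p = 0.0234) and -3.26 ± 0.41 in adjacent tissue (SE, limma adjusted p = 0.00226), which are 10.9-fold and 9.55-fold lower. Of all 14217 genes, 215 fell further in tumors and 220 fell further in adjacent tissue. In bulk tissue, fewer cells of a type and less RNA per cell cannot be told apart.

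Both other Prkcb probe sets moved the same way. The second (1368240_a_at) measured 7.38, 5.04 and 5.16 in tumors, 6.16, 4.55 and 1.43 in adjacent tissue, and 8.79, 8.85 and 9.46 in normal bladder. Its log2 fold change was -3.17 ± 0.62 in tumors (SE, limma adjusted p = 0.0161) and -4.99 ± 1.04 in adjacent tissue (SE, limma adjusted p = 0.0145). On 2 of 3 tumor arrays and 2 of 3 adjacent arrays it lay under a signal of 50 (5.64 on the log2 scale). The adjacent value leans on the 1.43 of adjacent tissue 3, and without that array it was -3.68. The third probe set (1397189_at) was under 50 on all 6 arrays of tumor-bearing rats and above it on all 3 normal arrays, at 6.62, 6.54 and 7.08. It was therefore at least 2.15-fold lower in tumors and at least 2.15-fold lower in adjacent tissue than in normal bladder (limma adjusted p = 0.0139 and 0.0205).

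The other classical gene, Prkca, which codes for the widely expressed alpha isoform, did not pass the test. It measured 7.75, 8.21 and 7.28 in tumors, 7.30, 8.16 and 7.71 in adjacent tissue, and 7.57, 7.49 and 8.19 in normal bladder. All 3 groups overlapped over nearly their whole range. The log2 fold change was -0.00 in tumors, with a 95% interval of -0.72 to 0.71, and -0.02 in adjacent tissue, with an interval of -0.72 to 0.67. Differences between 0.609-fold and 1.64-fold in tumors lie within this interval and were not detectable with 3 arrays a group.

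Among the calcium-independent isoforms, Prkcd, the delta isoform known for its role in apoptosis and keratinocyte differentiation, was the member that rose. It measured 10.32, 10.51 and 10.62 in tumors, 10.22, 10.37 and 10.52 in adjacent tissue, and 9.31, 9.27 and 8.88 in normal bladder. All 6 samples of tumor-bearing rats lay above all 3 normal bladders, and within each group the 3 rats differed little. The log2 fold change was 1.33 ± 0.16 in tumors (SE, limma adjusted p = 0.00457), with an interval of 1.93- to 3.27-fold. In adjacent tissue it was 1.22 ± 0.17 (SE, limma adjusted p = 0.0032), a 2.32-fold rise. In tumors 955 genes rose further. Prkcd kept its call with any 1 of the 6 arrays left out, at a limma adjusted p of up to 0.0292 in tumors and up to 0.0187 in adjacent tissue.

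Prkce, the epsilon isoform, measured 7.56, 7.65 and 7.75 in tumors, 7.42, 8.01 and 8.37 in adjacent tissue, and 8.07, 7.77 and 8.01 in normal bladder. The 3 tumors lay just below the 3 normal bladders without overlap, a pattern that 45.8% of all genes had in one direction or the other. The log2 fold change of -0.30 ± 0.18 did not pass the test (SE, limma adjusted p = 0.296), and the two-sided exact permutation p was 0.1, the smallest that 3 against 3 arrays allow. Prkch, the eta isoform typical of stratified epithelia, measured 9.49, 9.51 and 9.22 in tumors, 9.32, 9.73 and 9.57 in adjacent tissue, and 9.45, 9.49 and 9.28 in normal bladder. Its log2 fold change was 0.00 in tumors, with a 95% interval of -0.33 to 0.33, the narrowest of the 10 members. The second Prkch probe set (1369830_at) gave -0.19 in tumors and -0.28 in adjacent tissue, where adjacent tissue 1, at 5.63, stood apart from 8.01 and 7.97.

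Of the atypical isoforms, Prkci, the iota isoform of the apical polarity complex, measured 12.09, 12.51 and 12.48 in tumors, 12.77, 12.78 and 12.12 in adjacent tissue, and 12.10, 12.09 and 11.89 in normal bladder. Tumor 1 lay within the normal bladders, while the adjacent tissues all lay above them, adjacent tissue 3 by little. The log2 fold change was 0.33 ± 0.15 in tumors (SE, limma adjusted p = 0.167) and 0.53 ± 0.19 in adjacent tissue (SE, limma adjusted p = 0.0989). Prkci passed the test under some alternatives, at 0.47 without tumor 1 and at 0.75 without adjacent tissue 3 (limma adjusted p = 0.0125 and 0.0056). The other 2 Prkci probe sets were under a signal of 50 on 17 of their 18 array values and gave no usable fold. Prkcz, the zeta isoform, measured 8.84, 9.15 and 9.07 in tumors, 8.42, 8.85 and 8.71 in adjacent tissue, and 8.57, 8.91 and 8.83 in normal bladder. Its groups overlapped, and the log2 fold change was 0.25, with a 95% interval of -0.12 to 0.63, in tumors and -0.11, with an interval of -0.54 to 0.32, in adjacent tissue.

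Among the exchange factors, Rasgrp2, the Rap activator of platelets, also known as CalDAG-GEFI, followed the pattern of Prkcb. Its first probe set (1374872_at) measured 8.92, 5.91 and 6.48 in tumors, 8.65, 7.66 and 6.73 in adjacent tissue, and 10.08, 9.91 and 10.76 in normal bladder. The samples of tumor-bearing rats all lay below the normal bladders. Tumor 1 and adjacent tissue 1 were again the highest of their groups on this first probe set. The log2 fold change was -3.14 ± 0.73 in tumors (SE, limma adjusted p = 0.0276), 8.84-fold lower, and -2.57 ± 0.46 in adjacent tissue (SE, limma adjusted p = 0.00802), 5.94-fold lower. The second Rasgrp2 probe set (1374649_at) measured 8.11, 6.31 and 6.52 in tumors, 7.69, 7.73 and 7.01 in adjacent tissue, and 9.70, 9.88 and 9.57 in normal bladder. Its log2 fold change was -2.73 ± 0.45 in tumors (SE, limma adjusted p = 0.0101) and -2.24 ± 0.23 in adjacent tissue (SE, limma adjusted p = 0.00117). Over all 17 probe sets of the members, 6 were called in tumors and 6 in adjacent tissue, where 18% and 18.9% of all probe sets were called.

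Rasgrp3, the exchange factor of B cells and endothelium, measured 8.71, 8.54 and 7.81 in tumors, 8.64, 8.58 and 8.20 in adjacent tissue, and 7.84, 8.03 and 7.94 in normal bladder. Tumor 3 lay below the normal bladders and the other 2 tumors above them, while all adjacent tissues lay above, as 46.7% of all genes did not overlap between adjacent tissue and normal bladder in one direction or the other. Neither difference passed the test, at 0.42 ± 0.25 on the log2 scale in tumors (SE, limma adjusted p = 0.306) and 0.54 ± 0.19 in adjacent tissue (SE, limma adjusted p = 0.0937). Rasgrp1, the Ras activator of T cells, was dim. Its first probe set (1369130_at) measured 3.96, 1.13 and 2.03 in tumors, 4.98, 5.46 and 5.93 in adjacent tissue, and 2.58, 4.25 and 4.01 in normal bladder. Only adjacent tissue 3 exceeded a signal of 50, on both Rasgrp1 probe sets (5.70 on the second), so no fold is given. The 3 adjacent tissues were the 3 highest of the 9 arrays on the first probe set, with a limma adjusted p of 0.0755 against normal bladder. Of 11 T cell markers, 3 were called higher and 0 lower in adjacent tissue, and their summed signal was 156% to 204% of the normal bladder mean there, 87.5% to 162% in tumors, and 88.9% to 106% in normal bladder. Under a signal of 50 on all arrays of a group were 2 of these markers in adjacent tissue, 1 in tumors and 4 in normal bladder, and their part in the Rasgrp1 values was not tested.

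**Figure D2:**
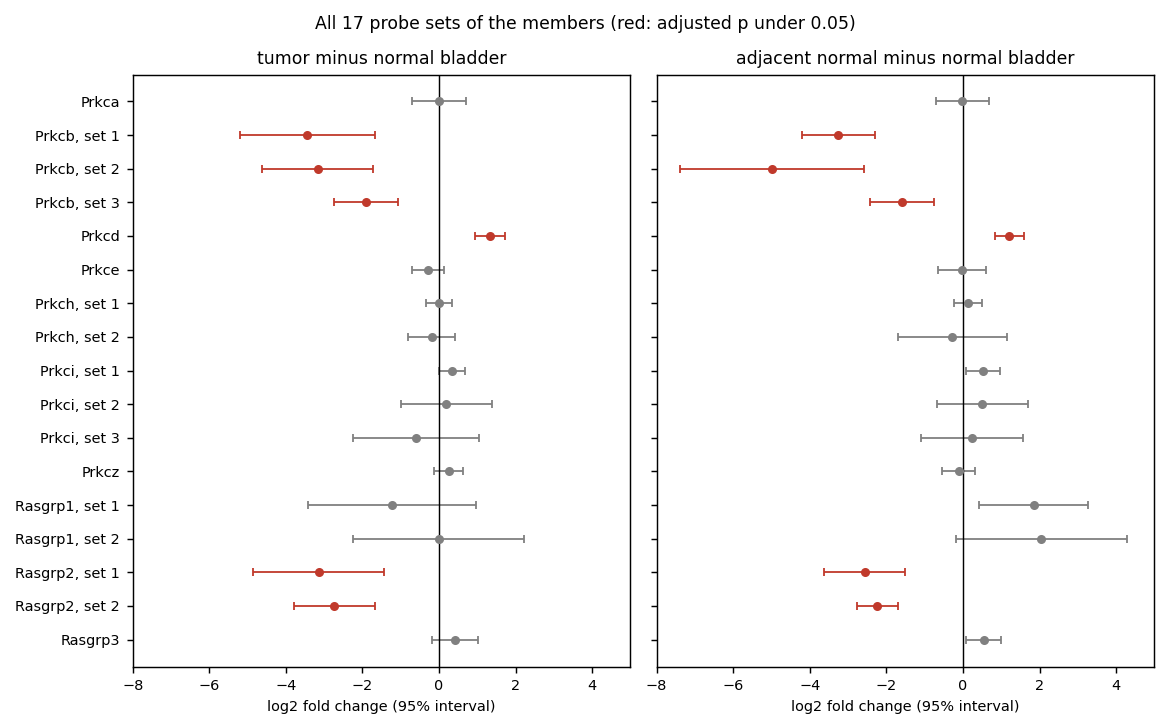
Log2 fold change (horizontal axis) with its 95% interval from limma for the 17 probe sets of the members, of tumors minus normal bladder in the left panel and of adjacent normal tissue minus normal bladder in the right panel (n = 3 each). Red marks an adjusted p under 0.05; the 3 Prkcb and 2 Rasgrp2 probe sets lie left of 0, Prkcd right of 0, and the intervals of all other sets in the left panel, such as Prkca and Prkch, include 0.

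On their first probe sets, Prkcb and Rasgrp2 had the lowest mean in tumors, the next in adjacent tissue and the highest in normal bladder. The second Prkcb probe set put tumors, at 5.86, above adjacent tissue, at 4.05. Only the step to normal bladder passed the test. Tumors minus adjacent tissue came to -0.19 for Prkcb (95% interval -2.12 to 1.75), 0.12 for Prkcd (-0.28 to 0.51) and -0.57 for Rasgrp2 (-2.48 to 1.33), with overlapping arrays in each case. For Prkcb and Rasgrp2 these intervals leave room for differences of more than 2-fold, so a gap between tumors and adjacent tissue was not detectable, rather than absent. limma called 0 of the 10 members between tumors and adjacent tissue, as it called 0 of all 14217 genes. At an unadjusted p under 0.05 it gave 1 member, Rasgrp1, and 376 genes (2.64%). The test of means named in the methods gave the same 1 member unadjusted (3.12% of all genes) and 0 after Benjamini-Hochberg adjustment. For Rasgrp1, all 3 tumors lay below all 3 adjacent tissues (limma adjusted p = 0.9997), as 7.06% of all genes did not overlap. All its tumor values and 2 of its 3 adjacent values were under a signal of 50, so no fold is given here either.

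The spread of Prkcb and Rasgrp2 among tumors went with that of smooth muscle RNA. Linear signals are given as a share of the normal bladder mean. That is the mean of log2 values for single genes and the mean of linear sums for marker lists. Prkcb stood at 36.1%, 4.93% and 4.38% in tumors 1 to 3 and at 21.7%, 7.72% and 6.84% in adjacent tissues 1 to 3. Rasgrp2 stood at 39.9%, 4.92% and 7.36% in the tumors and at 32.9%, 16.6% and 8.74% in the adjacent tissues. The summed signal of 12 smooth muscle markers (among them Acta2, Myh11, Cnn1 and Des) was 65.9%, 2.49% and 2.83% in the tumors and 32.9%, 9.84% and 4.27% in the adjacent tissues. Tumor 1 and adjacent tissue 1 kept the most of all 3. Over the 6 arrays of tumor-bearing rats, the log2 smooth muscle sum had a Pearson r of 0.983 with Prkcb, 0.985 with Rasgrp2 and -0.875 with Prkcd, as a description over 6 arrays that come in 3 pairs. Of the 12 markers, 6 were called lower in tumors and 12 in adjacent tissue, 0 were called higher, and 0 were under a signal of 50 throughout a group. Their part in the fall of Prkcb and Rasgrp2 was not tested.

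**Figure D3:**
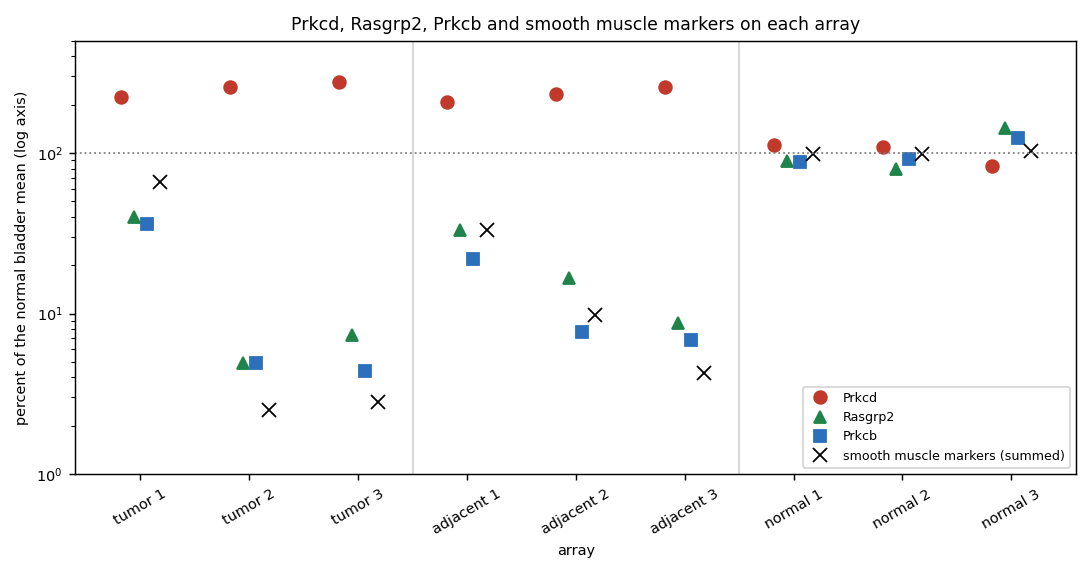
Linear signal of Prkcd, Rasgrp2, Prkcb (first probe sets) and the sum of 12 smooth muscle markers on each of the 9 arrays, as percent of the normal bladder mean on a log axis. The mean is of log2 values for the genes and of linear sums for the markers. Each symbol is 1 array value without error bars. Prkcb, Rasgrp2 and the muscle markers are highest in tumor 1 among tumors and in adjacent tissue 1 among adjacent tissues. Prkcd lies between 209% and 277% in all 6 samples of tumor-bearing rats.

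Marker lists of further cell types were summed in the same way. Platelet markers, 6 measured with 2 under a signal of 50 in each group, summed to 95.8% to 165% of the normal mean in tumors and 64.2% to 99.0% in adjacent tissue. B cell and plasma cell markers, also 6, summed to 78.2% to 188% in tumors and 158% to 2114% in adjacent tissue, with 4 under a signal of 50 throughout the tumors, 2 throughout adjacent tissue and 5 throughout normal bladder. The top value was that of adjacent tissue 1, where the plasma cell gene Jchain measured 12.31 on the log2 scale. Fibroblast markers, 10 with none under 50 throughout a group, summed to 76.1%, 6.98% and 16.6% in tumors 1 to 3 and to 61.4%, 48.6% and 20.1% in adjacent tissues 1 to 3. Like the smooth muscle sum, the fibroblast and platelet sums were thus highest in tumor 1 and in adjacent tissue 1. A correlation with Prkcb and Rasgrp2 was computed for the smooth muscle sum alone. Nerve and Schwann cell markers, 10 with 1 in tumors, 4 in adjacent tissue and 1 in normal bladder under 50, summed to 46.6% to 55.1% and 28.0% to 46.8%. Their part in the values of Prkcb and Rasgrp2 was not tested.

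Prkcd was set beside markers of epithelial, dividing and myeloid cells. It stood at 225%, 256% and 277% of the normal bladder mean in tumors 1 to 3 and at 209%, 232% and 258% in adjacent tissues 1 to 3. The summed signal of 10 basal and squamous epithelial markers was 263%, 315% and 318% on the tumor arrays and 260%, 329% and 448% in adjacent tissue, with 8 of 10 called higher and 0 lower in each comparison. That of 17 cell division markers was 406%, 787% and 892% on the tumor arrays and 320%, 576% and 773% in adjacent tissue, with all 17 called higher in each. Under a signal of 50 throughout normal bladder were 2 of the basal and squamous and 5 of the division markers. Umbrella and intermediate urothelial markers, 11 with none under 50 throughout a group, summed to 112% to 132% in tumors and 83.1% to 122% in adjacent tissue, so urothelial RNA was present in all 9 samples. The sum covers opposite moves, since 3 of the 11 were called higher and 2 lower in each comparison. Among the lower ones, the umbrella cell keratin Krt20 measured 7.15, 3.72 and 6.53 in tumors, 8.41, 8.04 and 7.32 in adjacent tissue, and 9.64, 9.58 and 9.64 in normal bladder. Neutrophil markers, 6 with 1 in tumors, 0 in adjacent tissue and 5 in normal bladder under 50 throughout, summed to 1814%, 7195% and 10526% on the tumor arrays and 3120%, 3163% and 25681% on the adjacent arrays, with 3 of 6 called higher and 0 lower in each comparison. Within tumors and within adjacent tissue, the neutrophil sum had the same order of samples as Prkcd, and so did the basal and squamous sum and the division sum. Macrophage and monocyte markers, 11 with 1 under 50 throughout normal bladder, summed to 116% to 155% in tumors and 117% to 183% in adjacent tissue, with 2 of 11 called higher and 0 lower in each. The part of these cell types in the rise of Prkcd was not tested. On the basal, squamous, division and smooth muscle markers, the tissue labelled adjacent normal lay nearer to the tumors than to normal bladder.

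Leaving out tumor 1 changed the size of the falls of Prkcb and Rasgrp2. Without it, Prkcb fell by 4.43 on the log2 scale (limma adjusted p = 4.2e-06) and Rasgrp2 by 4.05 (limma adjusted p = 6.6e-05), and 4 members were called, Prkci being the fourth. That fit called 37.9% of all genes, against 23.5% with no array left out. Without tumor 2, tumor 3 or any 1 normal bladder, the tumor calls of both first probe sets were lost, at a limma adjusted p of 0.0657 to 0.0907 for Prkcb and 0.0653 to 0.105 for Rasgrp2, with log2 fold changes of -2.91 to -3.53 and -2.55 to -3.31. Those fits also called fewer of all genes, 15.9% without tumor 2, 11.9% without tumor 3 and 6.34% to 7.28% without 1 normal bladder. The second Rasgrp2 probe set lost its tumor call only without normal bladder 2 (limma adjusted p = 0.0526), and both other Prkcb probe sets lost theirs without any 1 normal bladder, the second also without tumor 3 (limma adjusted p = 0.0584). The first probe set calls in adjacent tissue held with any 1 array left out, for Prkcb at an adjusted p of up to 0.0182 and for Rasgrp2 of up to 0.0431 by limma, whereas both other Prkcb probe sets lost theirs without any 1 normal bladder (limma adjusted p of 0.0555 to 0.095). Without 1 normal bladder, the share of all genes called in adjacent tissue fell from 24.8% to between 11.7% and 12.2%.

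The genes whose levels were most like those of the called members over the 9 arrays were named by Pearson r on the log2 scale, among 10682 genes. For Prkcb they were Pdlim3 (r = 0.997) and Jph2 (r = 0.997), a Z-disc and a junctional membrane protein of muscle, and Hacd1 (r = 0.995). For Rasgrp2 they were Fkbp14 (r = 0.995), Get1 (r = 0.995) and Col8a2 (r = 0.994), a collagen. For Prkcd they were Ly6g6e (r = 0.989), Knstrn (r = 0.988), a protein of the mitotic spindle, and Tcim (r = 0.986). Between members, r was 0.98 for Prkcb and Rasgrp2, -0.922 for Prkcb and Prkcd, and -0.905 for Rasgrp2 and Prkcd. Over the 6 arrays of tumor-bearing rats alone, r was 0.945 for Prkcb and Rasgrp2 and -0.842 for Prkcb and Prkcd.

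Around the members, 104 genes in 9 lists of the same signalling routes were measured. In tumors 14 of the 104 were called higher and 21 lower, and in adjacent tissue 16 higher and 17 lower, against the shares of all genes given above. Between tumors and adjacent tissue limma called 0, and the methods' test of means gave 3 higher and 3 lower unadjusted (3.12% of all genes) and 0 adjusted. Their median log2 fold change was -0.07 in tumors and -0.11 in adjacent tissue. Without tumor 1 the tumor count was 24 higher and 31 lower, and without normal bladder 2 it was 7 higher and 9 lower. Of all genes, 37.9% were called without tumor 1 (2907 higher and 2483 lower) and 6.34% without normal bladder 2 (585 higher and 317 lower). Of the 35 list genes called in tumors, 14 kept the call with any 1 array left out, and of the 33 in adjacent tissue, 19 did.

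**Figure D4:**
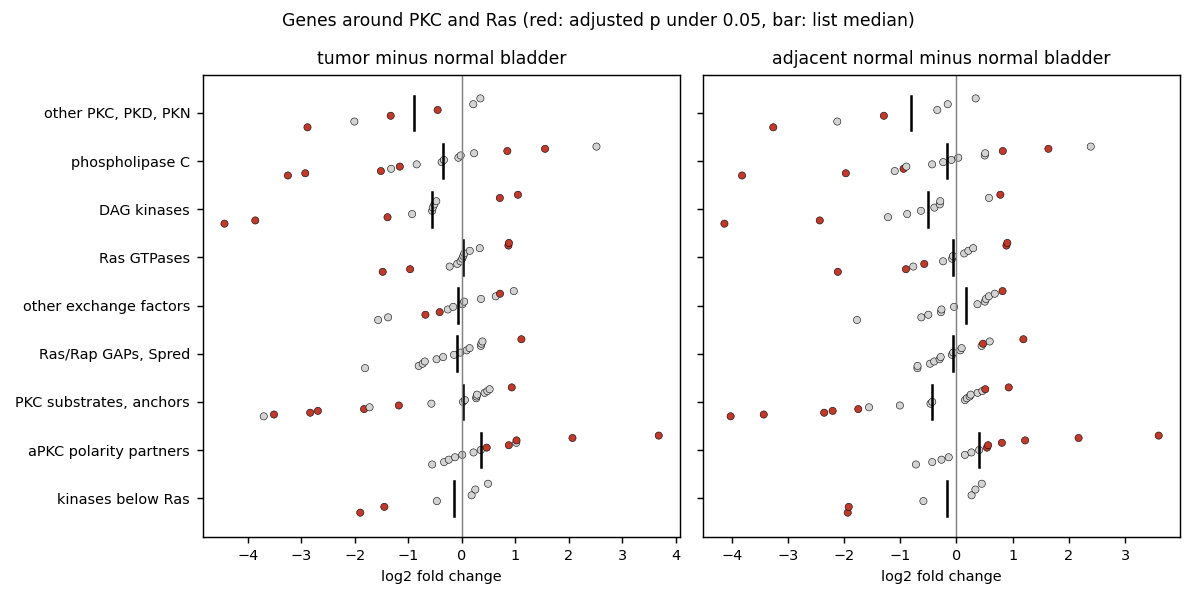
Log2 fold change (horizontal axis) of the 104 genes in the 9 lists around the members, of tumors minus normal bladder on the left and adjacent normal tissue minus normal bladder on the right. Each point is 1 gene by its first probe set, red where the adjusted p was under 0.05, and the bar is the list median. Called points lie only above 0 for the polarity partners (5 and 6 of 13) and the Ras/Rap GAPs (1 and 2 of 14, list medians -0.09 and -0.07). They lie only below 0 for the other PKC, PKD and PKN kinases (3 and 2 of 6) and the kinases below Ras (2 and 2 of 6). Of all genes, 13.6% and 13.3% were called higher and 9.95% and 11.5% lower.

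Upstream, the enzymes that make and remove diacylglycerol changed in both directions. Of 14 phospholipase C genes, 2 were called higher and 4 lower in tumors, and 2 higher and 3 lower in adjacent tissue, with list medians of -0.36 and -0.16. Plcb4, which G protein-coupled receptors activate, had a log2 fold change of -3.25 in tumors and -1.97 in adjacent tissue (limma adjusted p = 0.0149 and 0.00464). Plcl1, a related protein without catalytic activity, gave -2.93 and -3.82. Plcg2, the phospholipase of B cell and myeloid receptors, rose by 1.56 and 1.64, and Plch2 by 0.85 and 0.82.

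Of 10 diacylglycerol kinases, which turn diacylglycerol into phosphatidic acid, 2 were called higher and 3 lower in tumors and 1 higher and 2 lower in adjacent tissue. Dgkg was at least 8.72-fold lower in both tissues, since it was under a signal of 50 on all 6 arrays (limma adjusted p = 0.00361 in tumors and 0.00115 in adjacent tissue). Dgkb was at least 3.24-fold lower in both on the same ground. Dgka rose by 1.05 on the log2 scale in tumors (limma adjusted p = 0.0105), and Dgkq by 0.71 in tumors and 0.78 in adjacent tissue.

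Of 6 other PKC, protein kinase D and PKN genes measured, 0 were called higher, with 3 lower in tumors and 2 lower in adjacent tissue. Prkcq, the theta isoform known from T cells and skeletal muscle, had a log2 fold change of -2.89 in tumors and -3.26 in adjacent tissue (limma adjusted p = 0.00513 and 0.0198). Prkd3, a protein kinase D, gave -1.33 and -1.29 (limma adjusted p = 0.00646 and 0.00286). The medians of these 6 genes were -0.89 in tumors and -0.82 in adjacent tissue.

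Of 17 substrates and anchors of PKC, 1 was called higher and 5 lower in tumors, and 2 higher and 5 lower in adjacent tissue. Ppp1r14a, the CPI-17 protein through which PKC restrains myosin phosphatase in smooth muscle, had a log2 fold change of -3.51 in tumors and -4.02 in adjacent tissue (limma adjusted p = 0.0266 and 0.00331). Its paralog Ppp1r14b rose by 0.94 and 0.93 (limma adjusted p = 0.00932 and 0.00572). The 2 paralogs of 1 phosphatase inhibitor family thus went opposite ways. Akap12, an anchor for PKC and protein kinase A, gave -2.84 and -2.35, with the call kept with any 1 array left out in both comparisons.

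Called partners of atypical PKC were all higher. Of 13 polarity and scaffold genes, 5 were called higher and 0 lower in tumors, and 6 higher and 0 lower in adjacent tissue, with medians of 0.36 and 0.40. Pard6g, a Par6 adaptor that binds atypical PKC, averaged 10.11 ± 0.70 in tumors, 10.02 ± 0.59 in adjacent tissue and 6.43 ± 0.50 in normal bladder (SD, n = 3 each). It rose by 3.69 and 3.60 on the log2 scale (limma adjusted p = 0.00336 and 0.00103). Crb3, the apical Crumbs protein of epithelia, rose by 2.07 and 2.17 (limma adjusted p = 0.00232 and 0.0006). Prkci and Prkcz themselves, described above, did not pass the test.

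On the Ras side, 12 Ras family GTPase genes gave 2 higher and 2 lower in tumors, and 2 higher and 3 lower in adjacent tissue. Ralb and Nras rose by 0.88 and 0.87 in tumors and by 0.89 and 0.90 in adjacent tissue, all on the log2 scale. Rras, a GTPase known from vascular smooth muscle, had a log2 fold change of -1.48 in tumors and -2.11 in adjacent tissue (limma adjusted p = 0.00707 and 0.00153). Rap1a, a GTPase of the subfamily on which RasGRP2 acts, gave -0.97 and -0.90 (limma adjusted p = 0.00462 and 0.00299).

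Of 12 other exchange factors, 1 was called higher and 2 lower in tumors, and 1 higher and 0 lower in adjacent tissue. Ralgdsl2 rose by 0.72 and 0.82 on the log2 scale, and Rapgef2, a Rap exchange factor, fell by 0.68 in tumors. Of 14 genes that switch Ras or Rap off or inhibit the pathway, 1 was called higher in tumors and 2 in adjacent tissue, with 0 lower. Spred3, a Raf pathway inhibitor, rose by 1.12 and 1.19 (limma adjusted p = 0.0279 and 0.0241). Of 12 listed kinases below Ras, 6 were measured, with 0 called higher and 2 lower in each comparison. Some alternatives called rises in this list. With median centring 1 was higher in tumors and 2 in adjacent tissue, where 2504 and 3012 of all genes were called higher. Araf, a Raf kinase, had a log2 fold change of -1.90 in tumors and -1.92 in adjacent tissue (limma adjusted p = 0.00286 and 0.00296), and Rps6ka2, a ribosomal S6 kinase, gave -1.45 and -1.94. Araf, like Akap12, Crb3 and Dgkg, kept both calls with any 1 array left out. In contrast, the tumor calls of Ppp1r14a, Plcg2 and Rapgef2 held in only 1 of the 6 fits with an array left out, and those of Plcb4, Nras and Spred3 in only 2.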

How the data were processed

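The authors extracted total RNA from 9 rat bladder samples, labelled it by 3' in vitro transcription and processed the scanned arrays with MAS5. The deposited values are log2 signals, since the trimmed mean of the linear signal (2% at either end) was 500 on each array and the medians of the log2 values ran from 6.87 to 7.23. No further scaling was applied. The 57 control rows were left out, leaving 31042 probe sets: 20826 with 1 gene symbol in the platform annotation, 436 with several and 9780 with none. The methods name MAS5 for the arrays and a t-test of means for continuous variables.

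Each comparison was fitted on its own 6 arrays with limma 3.58.1 (lmFit and eBayes with a trend) in R 4.3.3, with Benjamini-Hochberg adjustment over all probe sets. The script was tested on simulated data. Replicates were separate rats. A signal of 50 was taken as the lower limit, from an earlier analysis of these data, and a fold against a group below it on every array is a bound. Named are all 10 members, and of each pathway list up to 2 called genes with the largest rises and 2 with the largest falls. For each called member, the 3 genes most alike over 9 arrays (mean log2 signal of at least 6) are named. Members, pathway lists and marker lists were chosen with earlier results of these data known.

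Tumors and adjacent tissues came from the same rats per the series design. Deviations from the group mean had an r of 0.523, 0.128 and 0.378 between same-numbered samples and of -0.465 to 0.272 between others. Tumor 2 was more like adjacent tissue 3 (0.272) than adjacent tissue 2 (0.128), so these values do not settle the pairing by number. The replicate number as a block was an alternative. Other alternatives were quantile normalization, median centring, a filter at the 40th percentile, 50 added before log2, eBayes without a trend, all 9 arrays in one fit, the methods' t-test, averaging all probe sets of each gene, and each array left out. Protein sequences of the members were not analysed here.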

Additional observations from a re-analysis of the deposited data

How the results depend on the processing

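The count of members called in tumors against normal bladder was 3, and 1 (Prkcd) under eBayes without a trend and under the methods' t-test with Benjamini-Hochberg adjustment, where Prkcb and Rasgrp2 lost their calls (adjusted p = 0.0689 and 0.0751, then 0.127 and 0.137). Of all genes, 23.5% were called in the main fit, 9.27% without a trend and 7.58% by the adjusted t-test. With 1 array left out the count of members ran from 1 to 4, and the share of all genes from 6.34% to 37.9%. In adjacent tissue against normal bladder the count of members was 3, and 5 with median centring (Prkci and Rasgrp3 added). The methods' t-test gave 5 unadjusted and 1 after adjustment (Prkcb 0.0512, Rasgrp2 0.087), and leaving out 1 array gave 3 to 5. Of all genes, 24.8% were called in the main fit, 30.4% with median centring, and 35.1% and 10.4% by that t-test. With 1 array left out this share ran from 11.7% to 29.5%. Between tumors and adjacent tissue the count of members was 0, also with the replicate block, and 0 under each array left out. It was 1 by the methods' unadjusted t-test, which called 3.12% of all genes. The block changed no call.

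Median centring moved the median of all genes to 0.25 in tumors (0.05 without it) and to 0.21 in adjacent tissue (0.01 without it). The split of called genes became 2504 higher and 1090 lower in tumors (1927 and 1414 without it) and 3012 higher and 1308 lower in adjacent tissue (1895 and 1636 without it).

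The values that changed sign, on the log2 scale, were of members not called in that comparison in the main analysis. In tumors against normal bladder, Prkca gave 0.14 with quantile normalization, 0.20 with median centring and 0.0011 with 50 added. With all probe sets of a gene averaged, Prkch gave -0.097 and Prkci -0.023. With 1 array left out, Prkca ran from -0.23 to 0.23 and Prkch from -0.062 to 0.093. In adjacent tissue against normal bladder, Prkca gave 0.13 and Prkce 0.10 with quantile normalization, and Prkca 0.18, Prkce 0.18 and Prkcz 0.093 with median centring, and Prkch -0.072 with probe sets averaged. With 1 array left out, Prkca ran from -0.24 to 0.19, Prkce from -0.24 to 0.24 and Prkcz from -0.21 to 0.013. Between tumors and adjacent tissue, Prkcb gave 0.44 with probe sets averaged, and with 1 array left out Prkcb ran from -1.17 to 0.35, Rasgrp2 from -1.48 to 0.026, Rasgrp3 from -0.30 to 0.15 and Prkca from -0.21 to 0.26. The cause of these changes was not tested. Of 149 values in tumors against normal bladder 14 lost their call and 2 gained one, of 149 in adjacent tissue 2 lost and 8 gained one, and of 159 between tumors and adjacent tissue 0 lost and 1 gained one.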
